A study of Mus musculus with 14 samples.

Results

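The genes described here are 38 genes of glutathione metabolism and antioxidant defence that were listed by name, the list having been drawn up with earlier results of these data known. All 38 were present in both deposited count tables, which hold 42396 genes each. They comprised 9 cytosolic glutathione S-transferases, 1 mitochondrial and 2 membrane glutathione transferases, 5 glutathione peroxidases, 3 genes of glutathione synthesis, glutathione reductase, 6 peroxiredoxins, 4 genes of the thioredoxin system, 3 superoxide dismutases with catalase, and 3 further targets of the transcription factor Nrf2.

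RNA of 14 whole hearts from female mice had been sequenced to see what loss of Atf3, a stress-induced transcription factor, does to the heart when respiratory complex I fails. In the genetic experiment, 4 Atf3+/+FS6KD and 4 Atf3-/-FS6KD hearts were taken at 12 weeks. In the AAV experiment, FS6KD mice received MyoAAV2-shCtrl or MyoAAV2-shAtf3 as neonates, and 3 hearts of each were collected 12 weeks after injection. The labels of the AAV hearts give the genotype only as control or Atf3 knockdown, and FS6KD is stated for them in the series design. FS6KD denotes a heart-dominant knockdown of Ndufs6, a complex I subunit, by a gene trap, and every group carried it, so that no heart with intact complex I was compared here. The Atf3-/-FS6KD line was made by CRISPR-Cas9 deletion of several Atf3 exons in fertilized eggs, which removes the gene from all cell types, and the colony was on a mixed C57BL/6J and 129/Ola background. MyoAAV2, a muscle-directed adeno-associated vector, delivered a hairpin RNA (shRNA) that was either a control or aimed at Atf3, so this loss of Atf3 was meant for muscle cells. In whole-heart RNA, fewer cells of a type and less RNA per cell cannot be told apart.

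Glutathione is a tripeptide made in a pair of ATP-dependent steps by glutamate-cysteine ligase (Gclc and Gclm) and glutathione synthetase (Gss), and glutathione reductase (Gsr) regenerates it with NADPH. Glutathione peroxidases use it to reduce peroxides and glutathione S-transferases attach it to electrophiles, whereas peroxiredoxins reduce peroxides with electrons from thioredoxin. Superoxide dismutases turn superoxide, much of which is produced by the respiratory chain in a tissue as rich in mitochondria as the heart, into hydrogen peroxide, and Nrf2 drives many of these genes through antioxidant response elements (AREs).

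The proximal promoters were examined because the Nrf2 and Atf3 families bind related DNA elements. RefSeq promoters (GRCm38.p6, 250 bases before to 50 bases after a listed start) were found for 32 of the 38 genes, and both strands were searched. A gene counted where any promoter listed for it held the motif. The start used was not always the outermost one, and the cores of Txnrd1 and Gstm7 lie within the spans of those genes. The ARE core, TGACNNNGC, was present in 9 of the 32 (28.1%), against 13.99% of 27025 genes with a promoter. The CRE palindrome TGACGTCA, to which Atf3 binds, was in 0 of the 32, against 2.03% of those 27025 genes. The AP-1 element TGACTCA was in 4 of the 32 (12.5%; Gstm5, Gstp1, Prdx1 and Srxn1), against 5.95%, and the ARE core of Prdx1 overlaps an AP-1 element. The 9 ARE cores are shown with 10 bases on each side, 5′ to 3′ on the strand of the gene, and capitals mark the core, which can lie on either strand.
Gsta3, ARE core, chr1:21240454-21240482, + strand: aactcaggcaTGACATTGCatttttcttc
Srxn1, ARE core, chr2:152105542-152105570, + strand: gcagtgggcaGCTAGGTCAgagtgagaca
Gstm5, ARE core, chr3:107895802-107895830, + strand: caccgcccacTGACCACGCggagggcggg
Gstm7, ARE core, chr3:107931725-107931753, - strand: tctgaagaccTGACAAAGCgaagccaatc
Gclm, ARE core, chr3:122245413-122245441, + strand: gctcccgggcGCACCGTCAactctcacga
Prdx1, ARE core, chr4:116685456-116685484, + strand: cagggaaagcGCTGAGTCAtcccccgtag
Mgst1, ARE core, chr6:138140461-138140489, + strand: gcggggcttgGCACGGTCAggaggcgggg
Txnrd1, ARE core, chr10:82859104-82859132, + strand: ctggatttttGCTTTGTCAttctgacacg
Sod1, ARE core, chr16:90220696-90220724, + strand: gccaaggtggGCGTGGTCAgactcaggcc
The 9 genes with a core had a median log2 fold change of -0.098 in the knockout comparison, and the 23 genes without one had a median of -0.092. The corresponding AAV medians were -0.0068 with a core and -0.0098 without. An unadjusted edgeR p below 0.05 was reached by 1 of the 9 and 2 of the 23 in the knockout comparison (all genes: 5.41% higher, 4.69% lower). In the AAV comparison it was reached by 0 of the 9 and 6 of the 23 (all genes: 5.05% higher, 7.65% lower). Gsta4 and Hmox1 were among the members for which no promoter was found, so they are in neither set. Genes with and without a core were not tested against each other. The presence of these letters describes the sequence and does not identify a bound site.

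The 250 bases upstream of Gpx3, the member with the clearest difference in the data, held none of the 3 motifs and were 55.2% G and C. They are shown because this was the sole member to pass the test in any comparison, and no base is capitalised because no motif was found.
Gpx3, GRCm38.p6, chr11:54902604-54902853, + strand: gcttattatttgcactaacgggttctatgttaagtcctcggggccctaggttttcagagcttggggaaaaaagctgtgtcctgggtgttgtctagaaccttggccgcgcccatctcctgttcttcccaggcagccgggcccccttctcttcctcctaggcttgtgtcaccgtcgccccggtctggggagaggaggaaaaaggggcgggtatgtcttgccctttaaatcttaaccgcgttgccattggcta

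Libraries of the knockout experiment held 33914931 to 134920825 counts, with replicates 3 and 4 of each genotype deeper than replicates 1 and 2, and libraries of the AAV experiment held 30085432 to 40534913. Levels are given as CPM, the counts of a gene scaled to the library total and normalised by TMM within each experiment. Of the 38 members, only Mgst1 was higher in all 4 deeper libraries than in all 4 shallower ones (mean 43.2 against 30.6 CPM) and none was lower, where 5.87% and 3.19% of all genes did so. Atf3 transcript was not lower in either Atf3-targeted group. It averaged 11.5 ± 9.53 CPM (SD, n = 4) in the Atf3+/+FS6KD group and 25.1 ± 9.64 CPM in the Atf3-/-FS6KD group, a log2 difference of 1.14 (SE 0.49, adjusted p = 0.480) by edgeR, and without Atf3+/+FS6KD replicate 1, the highest of its group, the difference was 1.89 (adjusted p = 0.113). Whether the counted reads lie within the deleted exons was not tested. In the AAV experiment it averaged 12.5 ± 2.13 CPM in labelled shCtrl and 16.6 ± 4.52 CPM in labelled shAtf3 hearts (n = 3 each), and in that table the columns carry names opposite to the labels. The labels were followed, and every direction in the AAV experiment rests on them. Cardiomyocyte markers were abundant in all 14 libraries, with 11 marker genes summing to 75391 to 103940 CPM.

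Antioxidant transcripts were spread unevenly over the genes. The 38 genes together gave 5644 to 6648 CPM per library. Gpx4, which reduces lipid hydroperoxides, took 14.1% to 17.0% of these counts, not corrected for gene length, and Sod2, the superoxide dismutase of the mitochondrial matrix, 10.03% to 13.2%. For a comparison of levels between genes, CPM was divided by exon length in kilobases. On that scale Gpx4 had the highest level in Atf3+/+FS6KD hearts, 742 ± 106 CPM per kb (n = 4), followed by the cytosolic dismutase Sod1 at 309 ± 15.7, Prdx5 at 292 ± 21.1, Prdx3 at 231 ± 7.61 and Prdx2 at 214 ± 9.94. The mean ± SD ranges of Sod1 and Prdx5 overlapped, as did those of Prdx3 and Prdx2, and genes were not compared within single hearts. Leaving aside Txnrd2, whose level depends on how numbered rows of that name are read, the lowest levels per kb were those of Gclm, 4.48 ± 0.464, Gpx7, 4.89 ± 0.616, and Gclc, 5.34 ± 0.811. The mean ± SD ranges of neighbours among these 3 overlapped. The first 8 genes of the order per kb (Gpx4, Sod1, Prdx5, Prdx3, Prdx2, Mgst3, Gpx3 and Gstm1) were the same in labelled shCtrl hearts. Part of the exon sequence of Gpx4 (40.8% of its 100-base windows, shared with Gpx4-ps2), Gstp1 (38.4%, with Gstp2) and Prdx5 (20.1%, with the overlapping Trmt112) also occurs in another gene, so their levels are uncertain. The tables also hold rows named Txnrd2 or Gstp1 with an added number, which were read here as copies of the gene, although the labels do not say what they are. With them counted to the gene, they held 61.4% to 61.9% of the Txnrd2 reads and 50% of the Gstp1 reads.

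In the comparison of Atf3-/-FS6KD with Atf3+/+FS6KD hearts, no member passed the test across all genes (two-sided quasi-likelihood test of edgeR, p adjusted by Benjamini-Hochberg, threshold 0.05), as 0 of 15592 genes did (0%). The log2 fold change was below 0 for 28 of the 38 members, against 49.8% of all genes, and the median member was at -0.088, against 0.00054 over all genes. With library sizes alone in place of TMM, 22 of 38 were below 0 and the median was -0.027, against 0.062 over all genes. At an unadjusted p below 0.05, Srxn1 was the 1 member higher (5.41% of all genes) and Gsta4, Gstk1 and Gsto1 were the 3 lower (4.69% of all genes). The groups did not overlap for 1 member, Gsta4, which was lower in every Atf3-/-FS6KD heart (2.63% of all genes), and for 0 members in the higher direction (3.08%). DESeq2 called 208 genes in this comparison (1.34%), among them 1 member, Gsta4. None of the 4 members with an unadjusted p below 0.05 lies on chromosome 1, which carries Atf3. Members on chromosome 1 were Mgst3 at 23.8 Mb, Prdx6 at 29.9 Mb and Gsta3 at 170 Mb from it, with log2 fold changes of 0.038, -0.078 and -0.53.

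In the AAV experiment, 1 of the 38 members passed the same test, where 82 of 15225 genes did (0.539%). It was Gpx3, lower in labelled shAtf3 hearts. The log2 fold change was below 0 for 22 members, against 50.9% of all genes, with a median of -0.019 against -0.0029 over all genes. With library sizes alone 28 were below 0 (median -0.059), but the median over all genes moved down by about as much. That shift was therefore not particular to the members. Without labelled shCtrl replicate 3, 16 members were below 0 (median 0.038). At an unadjusted p below 0.05, 3 members were higher (Sod2, Prdx3 and Gstk1; 5.05% of all genes) and 5 were lower (Gpx3, Sod3, Hmox1, Gpx1 and Gsto1; 7.65%). The groups did not overlap for 4 members in the higher direction (Sod2, Prdx3, Prdx1 and Gstm7; 8.48% of all genes) and 6 in the lower (Gpx3, Sod3, Gpx1, Gsto1, Gstm2 and Gstm5; 9.94%).

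**Figure D1:**
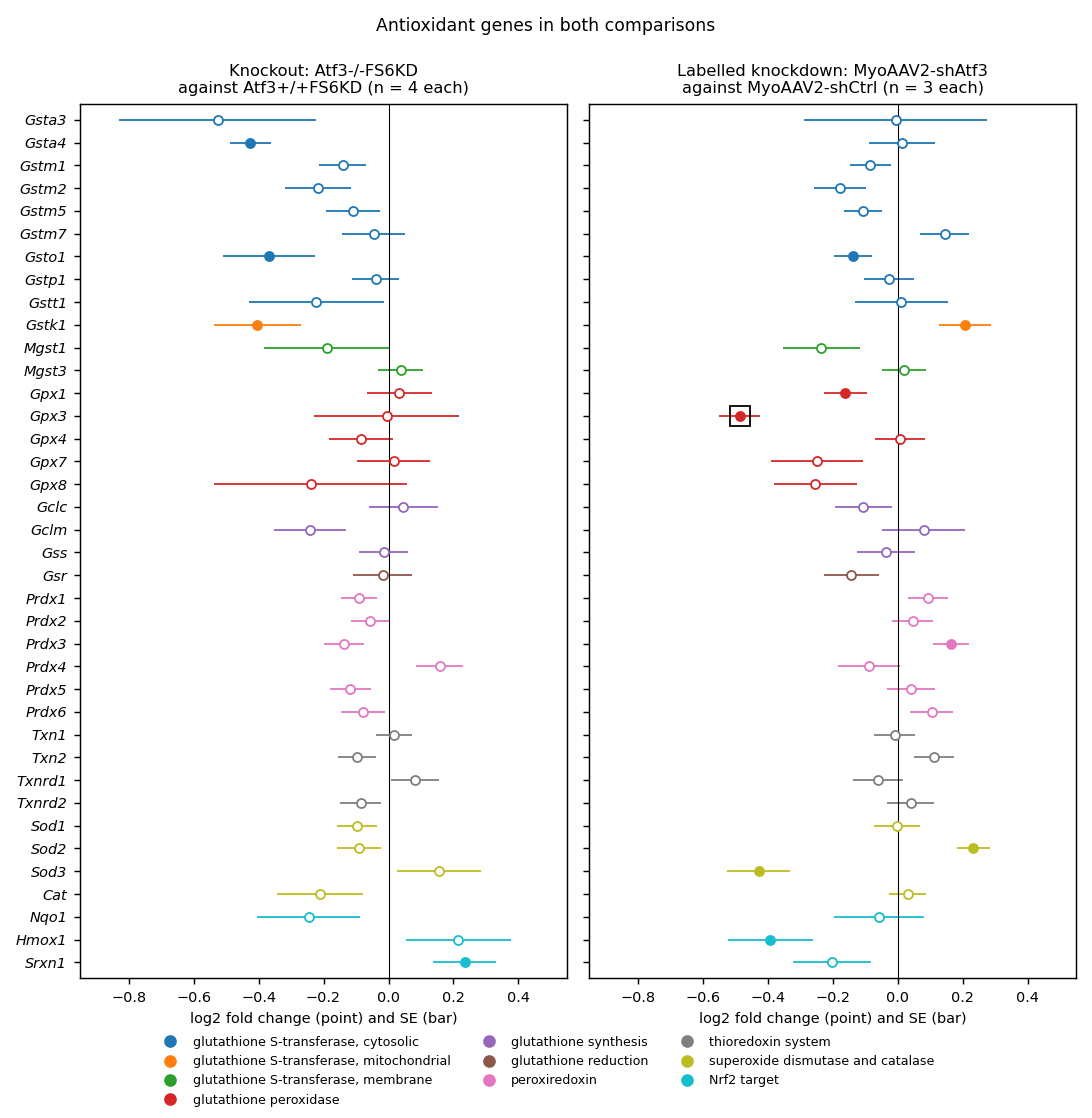
Log2 fold changes of the 38 antioxidant genes (points) with their standard errors (bars) in the knockout comparison (left, 4 hearts per group) and the AAV comparison (right, 3 hearts per group). Filled points have an unadjusted edgeR p below 0.05, and the square marks the 1 gene with an adjusted p below 0.05, Gpx3 in the AAV experiment; all 9 cytosolic glutathione S-transferases lie below 0 on the left.

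The difference between the 2 effects was tested in a joint edgeR fit to the 14 libraries as an interaction term, the knockout effect minus the knockdown effect. It was called for 0 of the 38 members, against 26 of 15708 genes (0.166%), whereas at an unadjusted p below 0.05 it was reached by 9 members and by 17% of all genes. The smallest adjusted p-values were those of Sod2 (-0.33, adjusted p = 0.0935), Prdx3 (-0.31, adjusted p = 0.0968), Gsta4 (-0.44, adjusted p = 0.107), Gstk1 (-0.61, adjusted p = 0.119) and Sod3 (0.58, adjusted p = 0.138). DESeq2 called 4 of these, Gstk1, Gsta4, Sod2 and Prdx3, where it called 669 genes in all (4.27%). Without labelled shCtrl replicate 3 edgeR called Gsta4 among 41 genes (0.261%), and without Atf3+/+FS6KD replicate 3 it called Gstk1 among 168 genes (1.07%). These signs, their order and these calls rest on the AAV labels. With the AAV labels turned, as the column names of that table have them, edgeR called 0 members and 0 genes (0%), and an unadjusted p below 0.05 was reached by 4 members (Gsta4, Gsto1, Gstm2 and Gstm1) and by 4.14% of all genes. The difference was then 0.14 for Sod2 and 0.029 for Prdx3, and Gsta4 kept its sign at -0.41.

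**Figure D2:**
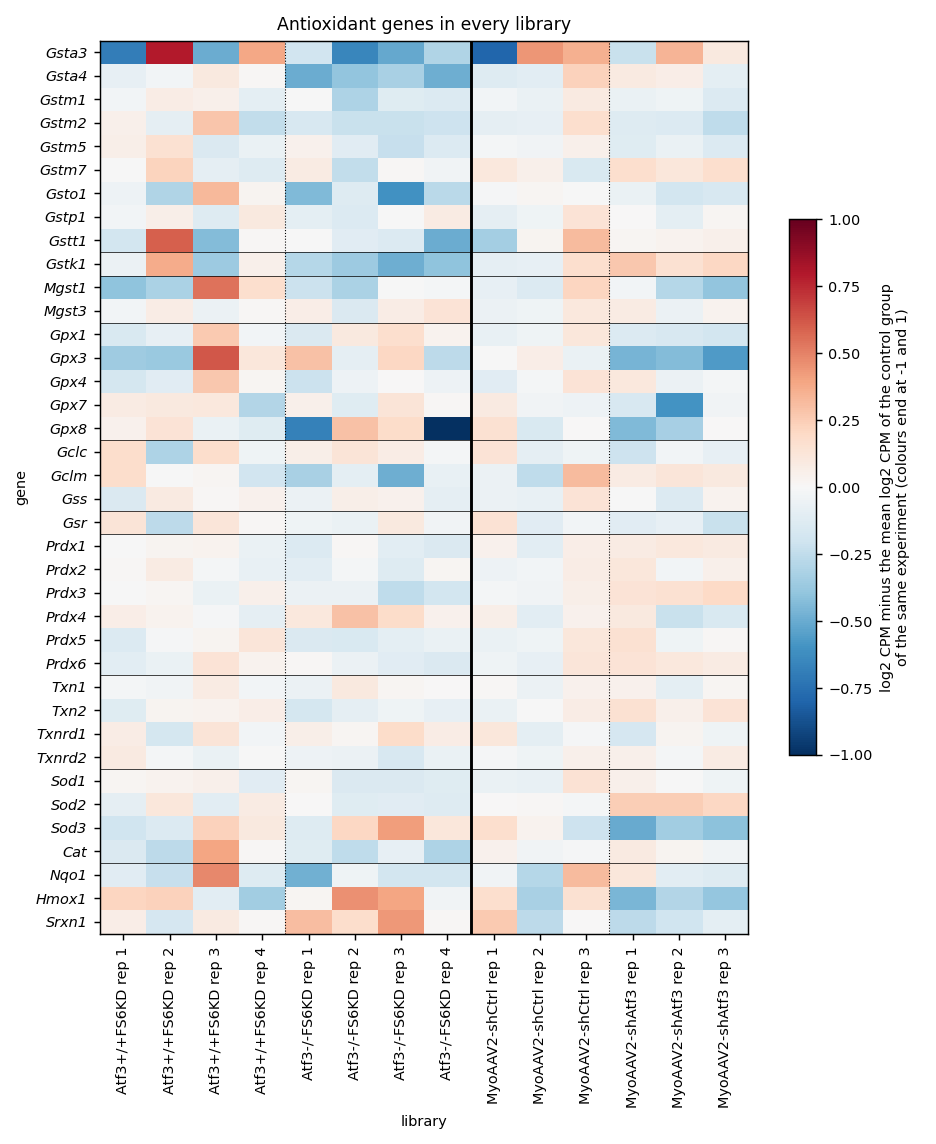
Each of the 38 antioxidant genes in each of the 14 libraries, as log2 CPM minus the mean log2 CPM of the control group of the same experiment, with the genes grouped by role. Gsta4 is below its control mean in all 4 Atf3-/-FS6KD libraries, and Gpx3 and Sod3 are below it in all 3 labelled shAtf3 libraries.

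Among the cytosolic glutathione S-transferases, Gsta4, whose enzyme conjugates the lipid peroxidation product 4-hydroxynonenal, had the lowest p of the 38 genes in the knockout comparison. Gsta4 (chr9:78191966-78209349, GRCm38) measured 48.0, 49.8, 54.5 and 51.3 CPM in Atf3+/+FS6KD hearts and 35.9, 38.8, 40.5 and 36.3 CPM in Atf3-/-FS6KD hearts. All 4 Atf3-/-FS6KD values lay below all 4 Atf3+/+FS6KD values, with a mean of 37.9 ± 2.16 against 50.9 ± 2.75 CPM. The log2 fold change was -0.43 (SE 0.063, adjusted p = 0.236) by edgeR, and the adjusted p ranged from 7.29e-06 with DESeq2 to 0.813 within replicates 1 and 2 over 20 alternative settings, the fold change staying between -0.46 and -0.36. With the shRNA, Gsta4 measured 47.1, 47.9 and 60.3 CPM in labelled shCtrl hearts and 54.7, 53.9 and 48.1 CPM in labelled shAtf3 hearts. Those groups overlapped, and the log2 fold change was 0.013 (SE 0.10, adjusted p = 0.975) by edgeR.

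Gsto1, an omega-class transferase with glutathione-dependent thiol transferase activity, measured 165, 139, 214 and 174 CPM in Atf3+/+FS6KD hearts and 126, 157, 112 and 142 CPM in Atf3-/-FS6KD hearts. The groups overlapped, and the log2 fold change was -0.37 (SE 0.14, adjusted p = 0.438) by edgeR, -0.10 within replicates 1 and 2 and -0.61 within replicates 3 and 4. Gsto1 in the AAV hearts measured 155, 158 and 156 CPM in labelled shCtrl hearts and 149.7, 138 and 140.0 CPM in labelled shAtf3 hearts. All labelled shAtf3 values were the lower ones, for a fitted log2 difference of -0.14 (SE 0.058, adjusted p = 0.368).

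The other 7 cytosolic members did not reach an unadjusted p of 0.05 in either comparison, and their levels are given as mean ± SD in the control and then the Atf3-targeted group of each experiment. Gsta3 averaged 10.9 ± 5.23 and 7.503 ± 1.08 CPM in the knockout experiment and 14.2 ± 5.70 and 14.1 ± 2.72 CPM in the AAV experiment. It was among the most variable members within groups, its standard deviation of log2 CPM lying at the 94.6th percentile of all genes in the knockout experiment and at the 98.5th in the AAV experiment. Of the mu class, which conjugates a broad range of electrophiles, Gstm1 averaged 226 ± 12.1 and 205 ± 17.4 CPM in the knockout experiment and 251 ± 14.5 and 236 ± 7.85 CPM in the AAV experiment. Gstm2 averaged 104 ± 16.2 and 89.3 ± 1.91 CPM in the knockout experiment and 110.3 ± 11.5 and 97.5 ± 4.68 CPM in the AAV experiment. Gstm5 averaged 44.7 ± 4.10 and 41.4 ± 3.36 CPM in the knockout experiment and 46.6 ± 1.45 and 43.3 ± 1.14 CPM in the AAV experiment. Gstm7 averaged 43.7 ± 4.9996 and 42.2 ± 3.99 CPM in the knockout experiment and 43.3 ± 4.00 and 47.8 ± 1.11 CPM in the AAV experiment, the labelled shAtf3 values all being the higher. Gstp1, of the pi class, averaged 40.2 ± 2.77 and 39.1 ± 2.75 CPM in the knockout experiment and 35.3 ± 2.96 and 34.6 ± 1.52 CPM in the AAV experiment. Gstt1, of the theta class, averaged 14.1 ± 4.55 and 12.0 ± 1.67 CPM in the knockout experiment and 14.2 ± 3.17 and 14.3 ± 0.123 CPM in the AAV experiment. All 9 cytosolic members, with Gsta4 and Gsto1, had log2 fold changes below 0 in the knockout comparison (median -0.22, range -0.53 to -0.039), and 7 to 9 of the 9 did so over the 20 alternatives, 7 with library sizes alone. In the AAV experiment 6 of the 9 were below 0, and 4 to 8 over the 15 alternatives.

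Gstk1, the kappa-class transferase of mitochondria and peroxisomes, had fold changes of opposite sign in the experiments. It measured 60.1, 80.6, 48.4 and 64.8 CPM in Atf3+/+FS6KD hearts and 51.2, 48.6, 44.5 and 47.3 CPM in Atf3-/-FS6KD hearts. The Atf3+/+FS6KD values ranged widely and overlapped the Atf3-/-FS6KD group at their lowest heart, and the log2 fold change was -0.40 (SE 0.13, adjusted p = 0.394) by edgeR. Gstk1 in the AAV hearts measured 54.6, 54.8 and 64.9 CPM in labelled shCtrl hearts and 69.9, 64.4 and 67.0 CPM in labelled shAtf3 hearts. The highest labelled shCtrl heart lay just above the lowest labelled shAtf3 heart, and the log2 fold change was 0.21 (SE 0.080, adjusted p = 0.329) by edgeR. Neither passed the test. Of the membrane-bound microsomal enzymes, Mgst1 averaged 39.2 ± 12.3 and 34.5 ± 3.54 CPM in the knockout experiment and 38.2 ± 5.10 and 32.4 ± 4.31 CPM in the AAV experiment, and Mgst3 averaged 215 ± 8.70 and 221 ± 18.3 CPM in the knockout experiment and 208 ± 13.2 and 210.3 ± 10.6 CPM in the AAV experiment.

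Gpx3 encodes the secreted glutathione peroxidase that circulates in plasma. Gpx3 (chr11:54902854-54910387, GRCm38) measured 299, 315 and 287 CPM in labelled shCtrl hearts and 217, 222 and 203 CPM in labelled shAtf3 hearts. The 3 labelled shAtf3 hearts were all below the 3 labelled shCtrl hearts, and within each group the values were close together. Gpx3 fell by 0.49 on the log2 scale in labelled shAtf3 hearts (SE 0.063, adjusted p = 0.0293, edgeR), with means of 300.1 ± 13.99 and 214 ± 10.3 CPM. Leaving out 1 heart at a time kept the fold change between -0.52 and -0.45, but the adjusted p rose above 0.05 without labelled shCtrl replicate 2 (0.107) or without labelled shAtf3 replicate 1, 2 or 3 (0.110, 0.159 and 0.148). In the knockout experiment Gpx3 measured 211, 209, 416 and 292 CPM in Atf3+/+FS6KD hearts and 331, 255, 313 and 225 CPM in Atf3-/-FS6KD hearts. The Atf3-/-FS6KD values all lay within the range of the Atf3+/+FS6KD values, for a fitted log2 difference of -0.0062 (SE 0.22, adjusted p = 0.995). That fold change was 0.49 within replicates 1 and 2 and -0.40 within replicates 3 and 4, and the interaction of the 2 effects had an adjusted p of 0.421.

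The other peroxidases did not pass the test. Gpx1, the cytosolic and mitochondrial enzyme, measured 67.4, 68.8 and 76.6 CPM in labelled shCtrl hearts and 64.4, 63.4 and 62.4 CPM in labelled shAtf3 hearts. All labelled shAtf3 values lay below the labelled shCtrl values, for a fitted log2 difference of -0.16 (SE 0.066, adjusted p = 0.355) by edgeR, and -0.10 without labelled shCtrl replicate 3. In the knockout experiment it measured 59.7, 62.5, 79.5 and 65.2 CPM in Atf3+/+FS6KD hearts and 60.1, 70.9, 74.4 and 67.9 CPM in Atf3-/-FS6KD hearts, which overlapped, for a fitted log2 difference of 0.033 (SE 0.10, adjusted p = 0.933). Gpx4, the phospholipid hydroperoxide peroxidase, averaged 944 ± 135 and 890.5 ± 56.8 CPM in the knockout experiment and 913 ± 81.9 and 918 ± 56.6 CPM in the AAV experiment. Gpx7 and Gpx8 are peroxidases of the endoplasmic reticulum. Gpx7 averaged 6.31 ± 0.794 and 6.35 ± 0.454 CPM in the knockout experiment and 7.54 ± 0.410 and 6.35 ± 1.24 CPM in the AAV experiment. Gpx8 averaged 25.3 ± 2.03 and 21.4 ± 9.88 CPM in the knockout experiment and 16.3 ± 1.75 and 13.7 ± 2.27 CPM in the AAV experiment. In Atf3-/-FS6KD replicates 1 and 4, Gpx8 was 15.8 and 10.4 CPM, against 23.2 to 30.8 CPM in the 6 other hearts of that experiment.

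Glutathione synthesis and reduction showed no member below an unadjusted p of 0.05. Gclc, the catalytic subunit of glutamate-cysteine ligase, averaged 18.3 ± 2.78 and 18.9 ± 0.796 CPM in the knockout experiment and 17.6 ± 1.47 and 16.4 ± 1.02 CPM in the AAV experiment. Its modifier subunit Gclm averaged 25.1 ± 2.60 and 21.2 ± 2.81 CPM in the knockout experiment and 23.5 ± 4.84 and 24.8 ± 0.357 CPM in the AAV experiment. Gss, which adds glycine, averaged 13.3 ± 0.915 and 13.2 ± 0.662 CPM in the knockout experiment and 14.7 ± 1.22 and 14.3 ± 0.849 CPM in the AAV experiment. Gsr, the reductase, averaged 25.7 ± 3.11 and 25.4 ± 1.34 CPM in the knockout experiment and 23.6 ± 2.14 and 21.4 ± 1.05 CPM in the AAV experiment. In the knockout comparison the largest difference among these 4 was that of Gclm, at -0.24 (SE 0.11, adjusted p = 0.510) by edgeR.

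The mitochondrial peroxiredoxin Prdx3 was lower in the knockout and higher in the AAV comparison, in neither past the test. It measured 313, 309 and 329 CPM in labelled shCtrl hearts and 349, 352 and 365 CPM in labelled shAtf3 hearts. The 3 labelled shAtf3 hearts were all higher, for a fitted log2 difference of 0.16 (SE 0.056, adjusted p = 0.269) by edgeR. In the knockout experiment it measured 340.1, 345, 326 and 353 CPM in Atf3+/+FS6KD hearts and 327, 328, 285 and 299.97 CPM in Atf3-/-FS6KD hearts. The 2 lowest values were Atf3-/-FS6KD hearts while the other 2 overlapped the Atf3+/+FS6KD group, and the log2 fold change was -0.14 (SE 0.062, adjusted p = 0.496) by edgeR, -0.062 within replicates 1 and 2, -0.22 within replicates 3 and 4 and -0.077 with library sizes alone.

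Of the cytosolic members of the family, Prdx1 averaged 366 ± 11.7 and 344 ± 18.1 CPM in the knockout experiment and 367 ± 23.3 and 391 ± 3.40 CPM in the AAV experiment. Prdx2 averaged 396 ± 18.4 and 381 ± 18.5 CPM in the knockout experiment and 361 ± 17.2 and 372 ± 18.3 CPM in the AAV experiment. Prdx4, which works in the endoplasmic reticulum, averaged 20.3 ± 0.948 and 22.6 ± 1.73 CPM in the knockout experiment and 23.9 ± 1.47 and 22.4 ± 2.68 CPM in the AAV experiment, and was the sole peroxiredoxin with a log2 fold change above 0 in the knockout comparison. Prdx5, found in mitochondria, peroxisomes and cytosol, averaged 422 ± 30.5 and 389 ± 10.6 CPM in the knockout experiment and 374 ± 26.2 and 384 ± 26.3 CPM in the AAV experiment. Prdx6, which also has phospholipase activity, averaged 234 ± 17.8 and 222 ± 10.54 CPM in the knockout experiment and 225 ± 17.4 and 241 ± 4.31 CPM in the AAV experiment. In total 5 of 6 peroxiredoxins were below 0 in the knockout comparison (4 with library sizes alone) and 5 of 6 above 0 in the AAV comparison (also with library sizes alone), and the difference between the experiments was not tested for the family.

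The thioredoxin system, which feeds electrons to the peroxiredoxins, had no member with an unadjusted p below 0.05. Txn1, the cytosolic thioredoxin, averaged 69.2 ± 2.75 and 70.0 ± 3.17 CPM in the knockout experiment and 72.2 ± 2.53 and 71.7 ± 3.80 CPM in the AAV experiment. Txn2, its mitochondrial counterpart, averaged 311 ± 17.4 and 291 ± 10.9 CPM in the knockout experiment and 295 ± 14.1 and 318 ± 12.2 CPM in the AAV experiment. The cytosolic reductase Txnrd1 averaged 88.0 ± 7.91 and 93.2 ± 4.62 CPM in the knockout experiment and 89.1 ± 6.70 and 85.4 ± 5.73 CPM in the AAV experiment. The mitochondrial reductase Txnrd2 averaged 17.5 ± 0.823 and 16.5 ± 0.603 CPM in the knockout experiment and 16.4 ± 0.562 and 16.8 ± 0.588 CPM in the AAV experiment. Txnrd2 was among the steadiest of all genes within groups, its standard deviation of log2 CPM lying at the 6.18th percentile in the knockout experiment and the 7.94th in the AAV experiment.

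**Figure D3:**
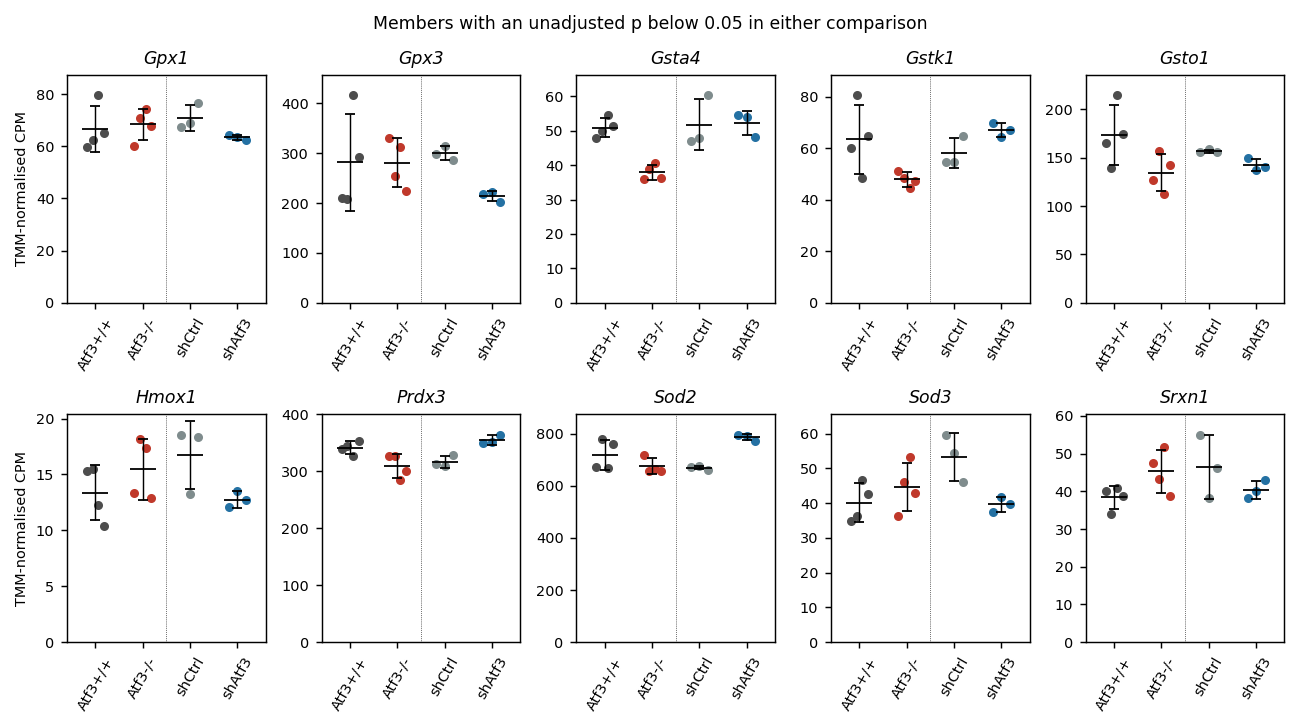
CPM of the 10 antioxidant genes with an unadjusted p below 0.05 in either comparison, 1 point per heart, with the group mean (line) and SD (bars); CPM is TMM-normalised within each experiment, so the 2 experiments are set side by side and not tested across. The Gsta4 points of the 4 Atf3-/-FS6KD hearts all lie below those of the 4 Atf3+/+FS6KD hearts, and the Gpx3 points of the 3 labelled shAtf3 hearts all lie below those of the 3 labelled shCtrl hearts.

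Sod2 and Sod3, the matrix and extracellular superoxide dismutases, did not pass the test in either comparison. Sod2 measured 672, 675 and 662 CPM in labelled shCtrl hearts and 796, 792 and 773 CPM in labelled shAtf3 hearts. Every labelled shAtf3 value was higher and the spread within each group was small, for a fitted log2 difference of 0.23 (SE 0.051, adjusted p = 0.102) by edgeR. Its adjusted p ranged from 0.00606 with DESeq2, which called it, to 0.330 when 1 heart was left out. DESeq2 called 308 genes in this comparison (2.02%), 3 of them members. In the knockout experiment Sod2 measured 673, 778, 667 and 758 CPM in Atf3+/+FS6KD hearts and 719.5, 658, 664 and 656 CPM in Atf3-/-FS6KD hearts. These overlapped, for a fitted log2 difference of -0.092 (SE 0.068, adjusted p = 0.665) by edgeR, -0.053 without Atf3+/+FS6KD replicate 2 and -0.030 with library sizes alone.

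Sod3 measured 59.7, 54.3 and 45.9 CPM in labelled shCtrl hearts and 37.4, 41.7 and 39.8 CPM in labelled shAtf3 hearts. The labelled shAtf3 values were all lower, for a fitted log2 difference of -0.43 (SE 0.096, adjusted p = 0.121) by edgeR. It was called with DESeq2 (adjusted p = 0.00496), without a filter on low counts (0.0169, where 1.13% of all genes were called) and without labelled shCtrl replicate 3 (0.00980, where 1.88% were), and the adjusted p over the 15 alternatives reached 0.380. In the knockout experiment Sod3 measured 34.7, 36.3, 46.7 and 42.6 CPM in Atf3+/+FS6KD hearts and 36.3, 46.0, 53.2 and 43.0 CPM in Atf3-/-FS6KD hearts. The groups overlapped, for a fitted log2 difference of 0.15 (SE 0.13, adjusted p = 0.706) by edgeR. Without Atf3+/+FS6KD replicate 1 or 3 it was 0.092 and 0.23, and without Atf3-/-FS6KD replicate 1 or 3 it was 0.24 and 0.055. Sod1, the cytosolic copper-zinc dismutase, averaged 198 ± 10.1 and 185 ± 10.51 CPM in the knockout experiment and 199 ± 17.3 and 198 ± 6.40 CPM in the AAV experiment. Cat, the peroxisomal catalase, averaged 329.8 ± 68.3 and 285 ± 21.1 CPM in the knockout experiment and 357 ± 10.3 and 364 ± 15.7 CPM in the AAV experiment.

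The 3 further Nrf2 targets did not share a direction in the knockout comparison. Hmox1, which degrades haem, measured 18.6, 13.2 and 18.4 CPM in labelled shCtrl hearts and 12.1, 13.5 and 12.7 CPM in labelled shAtf3 hearts. The labelled shCtrl group held 1 low heart that overlapped the labelled shAtf3 group, and the log2 fold change was -0.39 (SE 0.13, adjusted p = 0.260) by edgeR. In the knockout experiment it measured 15.3, 15.5, 12.3 and 10.4 CPM in Atf3+/+FS6KD hearts and 13.4, 18.1, 17.4 and 12.9 CPM in Atf3-/-FS6KD hearts, which overlapped, for a fitted log2 difference of 0.21 (SE 0.16, adjusted p = 0.669). That difference was 0.11 without Atf3+/+FS6KD replicate 4 and 0.13 without Atf3-/-FS6KD replicate 2, and 0.035 within replicates 1 and 2 against 0.42 within replicates 3 and 4.

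Srxn1, the sulfiredoxin that repairs over-oxidised peroxiredoxins, has its ARE core shown above and measured 40.1, 34.1, 40.8 and 38.8 CPM in Atf3+/+FS6KD hearts and 47.5, 43.2, 51.7 and 38.7 CPM in Atf3-/-FS6KD hearts. In total, 3 of 4 Atf3-/-FS6KD hearts exceeded every Atf3+/+FS6KD heart and the remaining 1 fell within that group, for a fitted log2 difference of 0.23 (SE 0.097, adjusted p = 0.462) by edgeR. The AAV hearts measured 55.1, 38.2 and 46.1 CPM in labelled shCtrl hearts and 38.3, 40.0 and 43.0 CPM in labelled shAtf3 hearts, which overlapped, for a fitted log2 difference of -0.20 (SE 0.12, adjusted p = 0.528). That difference was -0.062 without labelled shCtrl replicate 1 and -0.32 without labelled shCtrl replicate 2. Nqo1, a quinone reductase, averaged 93.6 ± 23.0 and 79.0 ± 9.67 CPM in the knockout experiment and 94.5 ± 20.05 and 90.8 ± 8.84 CPM in the AAV experiment. The transcription factor Nfe2l2 (Nrf2) itself had log2 fold changes of -0.13 (SE 0.14, adjusted p = 0.758) and 0.11 (SE 0.091, adjusted p = 0.662) by edgeR in the knockout and AAV comparisons. Its inhibitor Keap1 had -0.10 (SE 0.068, adjusted p = 0.635) and -0.074 (SE 0.096, adjusted p = 0.808), the knockout value being -0.066 without Atf3-/-FS6KD replicate 2 and -0.040 with library sizes alone. Nnt, the mitochondrial transhydrogenase that makes NADPH for glutathione reduction, had -0.19 (SE 0.14, adjusted p = 0.663) and 0.014 (SE 0.074, adjusted p = 0.963). Its knockout value was -0.089 when Atf3+/+FS6KD replicate 1 was left out, -0.12 when Atf3-/-FS6KD replicate 3 was, -0.096 within replicates 1 and 2 and -0.30 within replicates 3 and 4. That of Nfe2l2 was -0.0027 within replicates 1 and 2 and -0.26 within replicates 3 and 4, and its AAV value was 0.058 to 0.22 when 1 heart was left out.

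Lists of genes around the pathway were counted in the same fits, and none of their genes was called by edgeR in either comparison. Of 9 regulators of Nrf2, 2 were higher and 7 lower in the knockout comparison, with 0 below an unadjusted p of 0.05, and 2 higher and 7 lower in the AAV comparison, with 1 lower at that p. Of 14 other glutathione transferases tested, 4 were higher and 10 lower, then 6 higher and 8 lower, with 1 lower at p below 0.05 in each. Of 14 genes of glutathione turnover and cystine uptake, 5 were higher and 9 lower in the knockout comparison (2 higher at p below 0.05), then 7 and 7 (1 higher). The 15 genes of NADPH supply split 6 to 9 and then 8 to 7, with 1 at that p in each direction and then 2 in each. Of 15 glutaredoxins, sulfiredoxin partners and thioredoxin modulators, 3 were higher and 12 lower in the knockout comparison (1 lower at that p), and 12 higher and 3 lower in the AAV comparison (3 higher). Of 19 other oxidative stress genes, 5 were higher and 14 lower (1 and 2 at that p), then 6 and 13 (2 lower). Of 11 superoxide-producing oxidases, 8 were higher and 3 lower in the knockout comparison (3 and 1 at that p), and 2 higher and 9 lower in the AAV comparison (5 lower).

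Markers of other cell types were counted in the same fits, and those of fibroblasts were the sole ones with any gene called. In the AAV experiment all 10 fibroblast markers were lower in labelled shAtf3 hearts, with an unadjusted p below 0.05 for all 10, and 5 were called by edgeR. These were Col1a1 (-0.84, adjusted p = 0.0293), Col1a2 (-0.82, adjusted p = 0.0293), Col3a1 (-1.05, adjusted p = 0.0328), Postn (-1.14, adjusted p = 0.0299) and Dpt (-0.47, adjusted p = 0.0299), which encode collagens and extracellular matrix proteins. The summed level of the 10 was 3925 to 4963 CPM in labelled shCtrl and 3086 to 3168 CPM in labelled shAtf3 hearts. In the knockout comparison all 10 were higher, 7 with an unadjusted p below 0.05 and 0 called, with sums of 2846 to 3913 and 3596 to 4352 CPM. Of 10 macrophage markers, 9 were higher in the knockout comparison (357 to 438 against 385 to 564 CPM) and 9 lower in the AAV comparison (529 to 594 against 474 to 525 CPM), with 0 called in either. At an unadjusted p below 0.05, 2 of them were higher in the knockout comparison and 5 lower in the AAV comparison. Cardiomyocyte markers were lower for 10 of 11 in the knockout and higher for 10 of 11 in the AAV comparison. Erythrocyte markers were lower for 5 of 5 and higher for 5 of 5, with 0 below an unadjusted p of 0.05. Endothelial markers were higher for 6 of 8 in each comparison, and smooth muscle and pericyte markers for 5 of 7 and then 1 of 7. Adipocyte, lymphocyte and atrial markers were mostly below the filter, 2, 2 and 2 of them being tested in the knockout comparison and 2, 1 and 2 in the AAV comparison. Both adipocyte markers tested were lower in labelled shAtf3 hearts (-1.34 and -2.005, both at an unadjusted p below 0.05 and 0 called), with sums of 0.41, 1.93 and 2.51 CPM in labelled shCtrl and 0.41, 0.51 and 0.65 CPM in labelled shAtf3 hearts. Both atrial markers tested were also lower there (-1.06 and -0.33, 1 of them at an unadjusted p below 0.05 and 0 called). Their sum was 788, 779 and 264 CPM in labelled shCtrl replicates 1, 2 and 3 and 286, 338 and 256 CPM in labelled shAtf3 hearts, so that labelled shCtrl replicates 1 and 2 stood above the other 4 hearts. Sod3, Gpx3 and the fibroblast marker sum were also higher in those 2 hearts than in labelled shCtrl replicate 3, the fibroblast sum being 4963 and 4894 against 3925 CPM. The atrial marker sum in the knockout experiment was 567 to 649 CPM in Atf3+/+FS6KD and 286 to 699 CPM in Atf3-/-FS6KD hearts. The part of cell composition, atrial tissue included, in the differences of Gpx3 and Sod3 was not tested, and their levels are plotted against the fibroblast marker sum.

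**Figure D4:**
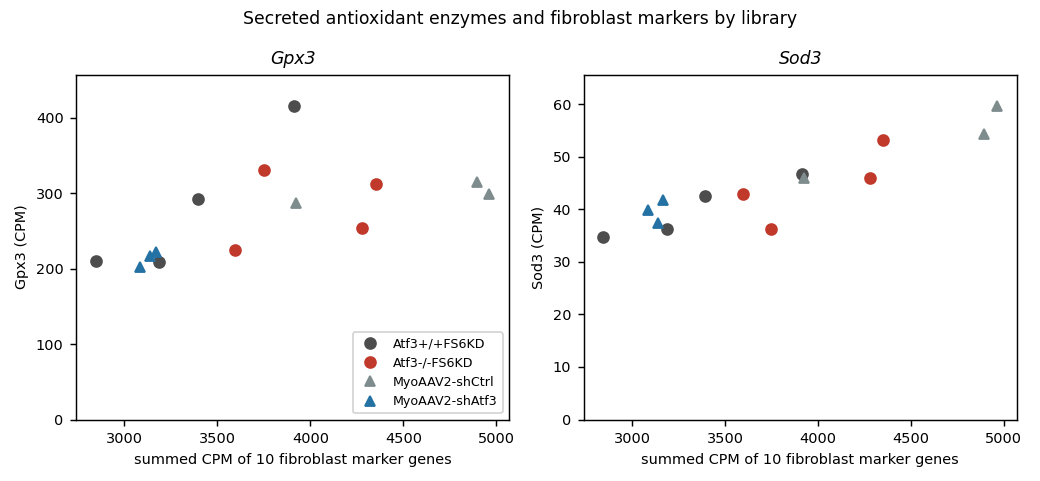
Gpx3 (left) and Sod3 (right) CPM in each of the 14 hearts against the summed CPM of 10 fibroblast markers; circles are hearts of the knockout experiment and triangles hearts of the AAV experiment, each normalised on its own. The 3 labelled shAtf3 hearts lie at 3086 to 3168 CPM of markers, below all 3 labelled shCtrl hearts, and also have the lower Gpx3 and Sod3 values of the AAV experiment.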

How the data were processed

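Whole-heart RNA had been sequenced from stranded mRNA libraries. For the knockout experiment, the study's methods give single-end reads, mapping to GRCm38.p6 and counting with featureCounts 2.0.0, and the labels name the same counter and build for all libraries. The aligner and the settings for strand and multiply mapped reads are not given in the sources used here, so overlapping or antisense genes could share reads. In the tables that the authors deposited, each value is the estimated count of 1 gene in 1 library, neither normalised nor pooled, and 19.3% to 24.4% of values were not whole. Values were rounded, although whole counts had been assumed in the design.

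A gene was tested where any library of the comparison (at least 1) exceeded 1 CPM, with edgeR 4.0.16 (R 4.3.3, TMM, quasi-likelihood F-test), separately in each experiment and as an interaction over all 14 libraries, which were grouped by their labels. DESeq2 1.42.0 and limma 3.58.1 were alternatives, with other scalings, filters, a replicate block, a depth term, leaving out each heart and, for the interaction, the AAV labels turned (chosen after seeing the data). Scripts were tested on simulated data. Fold changes are log2, and SE is the fold change divided by the root of F. Levels per kb used exon lengths of GENCODE M21, and gene positions came from RefSeq (GRCm38.p6). Replicates differed by a chi-square of 7.36 to 99.8 per gene, so none was a repeated library. The number of hearts limits precision, and the part of counting error in the spread was not computed. Members with an unadjusted p below 0.05 in either comparison were described by library, and of the other genes Nfe2l2, Keap1, Nnt, Atf3 and called list genes were named; the remaining members were given as means. The members and lists were chosen with earlier results of these data known. No deposited sample column was left out (0 not used).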

Additional observations from a re-analysis of the deposited data

Results flagged for a closer look

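Within the 2 groups of 4 hearts, the 38 antioxidant genes, Atf3, Nfe2l2, Keap1 and Nnt gave 84 sets of 4 values, of which 6 held 1 heart far from the other 3 by Dixon's criterion. Chance flags about 1 in 20 such sets. In the first Atf3+/+FS6KD heart, Atf3 was 25.8 CPM against 6.36 to 6.91 CPM in the others of its group. Gpx7 was low in the fourth Atf3+/+FS6KD heart, at 5.12 against 6.65 to 6.75 CPM. In the third Atf3+/+FS6KD heart, Nqo1 was 128 CPM against 78.1 to 84.8 CPM and Txn1 was 73.3 CPM against 67.5 to 68.1 CPM. The first Atf3-/-FS6KD heart was high for Sod1, at 200.4 against 178.5 to 181.9 CPM, and for Sod2, at 719.5 against 656.3 to 664.4 CPM.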

How the results depend on the processing

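The knockout comparison called no antioxidant gene under 19 of 20 alternatives, and DESeq2 called 1 (Gsta4). Over all genes it called 208 with DESeq2, 2 with no filter on low counts, 8 within replicates 3 and 4, and 0 to 15 when 1 heart was left out. The antioxidant median was -0.027 with library sizes alone, and between -0.11 and -0.071 otherwise. The labelled shAtf3 comparison called 3 antioxidant genes with DESeq2, 2 with no filter on low counts and 0 to 2 when 1 heart was left out. Over all genes it called 308 with DESeq2, 304 with no filter and 1 to 285 when 1 heart was left out, against 82. With library sizes alone it called 7 genes higher and 88 lower, against 13 and 69. Its median ranged from -0.059 to 0.038. The interaction called 4 antioxidant genes with DESeq2 and 0 to 1 when 1 heart was left out, and over all genes 669 with DESeq2, 48 with limma, 205 with library sizes alone and 0 to 168 when 1 heart was left out. With the AAV labels turned, an alternative chosen after seeing the data, it called 0 antioxidant genes and 0 of all genes, against 26.

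Hearts were not treated as paired by replicate number. The same-number correlations of deviations were 0.15, 0.086, 0.0064 and 0.13 in the knockout and -0.00037, 0.15 and 0.083 in the AAV experiment. Those between different numbers ran from -0.24 to 0.19 and from -0.18 to 0.089. So few values cannot decide whether the numbers pair the hearts. With a replicate block, the knockout comparison called 0 antioxidant genes and 0 of all genes, with a median of -0.087, and the AAV comparison called 1 (Gpx3, adjusted p = 0.0478) and 20 of all genes, with a median of -0.018.

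The sign turned for 6 single-gene fold changes, none of them called. Gpx3 in the knockout comparison became 0.038 with limma, 0.053 with library sizes alone, 0.036 with the replicate block, 0.041 with a depth term, 0.49 within replicates 1 and 2, and -0.13 to 0.24 when 1 heart was left out. Gpx1 there became -0.025 within replicates 3 and 4 and -0.016 to 0.13 leaving out 1 heart, and Nfe2l2 -0.22 to 0.0071. In the AAV comparison, Gsta4 and Nnt became -0.025 with library sizes alone and -0.050 to 0.14 and -0.053 to 0.088 leaving out 1 heart, and Keap1 -0.15 to 0.037. Leaving out 1 heart moved the fold change of 9 of 14 single genes in the knockout and 7 of 14 in the AAV comparison by over 1.5 times, sign turns included. The causes were not tested. Of the 28 members not described by library, up to 8 turned sign in the knockout and 6 in the AAV comparison under a setting, and none was called.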

Other observations

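Single hearts were at the upper end for many of the genes at once. The third Atf3+/+FS6KD heart had the highest CPM of the 8 hearts for 12 of the 38 antioxidant genes and the lowest for 0. The third labelled shCtrl heart had the highest of the 6 hearts for 14 of the 38 and the lowest for 2. The first labelled shAtf3 heart was highest for 10 and lowest for 5, and the second Atf3+/+FS6KD heart was highest for 9 and lowest for 5. The first Atf3-/-FS6KD heart was highest for 0 and lowest for 5. The same counts were not made over all genes.

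Within groups, the antioxidant genes varied about as much as other genes in the AAV experiment, the median standard deviation of log2 CPM being 0.10 for the 38 genes and 0.12 for all genes tested. Sod2 had one of the smallest spreads there, 0.019, at the 0.394th percentile of all genes.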
